A study of Homo sapiens with 4 samples.

Results

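The cytosolic ribosome of human cells is built from ribosomal RNA and a fixed set of proteins, those of the small subunit (RPS genes), which reads the mRNA, and those of the large subunit (RPL genes), which joins amino acids. The genes for these proteins were examined in H1 cells, an established human embryonic stem cell line, at day 2 of hematopoietic differentiation in the presence or absence of IWP2, a small molecule that inhibits Porcupine and so the secretion of Wnt proteins. Members were the rows of the expression table whose gene symbol has the form RPL or RPS with a number, RPLP0 to RPLP2, or RPSA, without pseudogenes and without chromosome Y. This gave 84 of the 58365 genes in the table, namely 31 small-subunit genes, 46 large-subunit genes and 7 genes for paralogs, which are proteins that resemble a ribosomal protein but come from another gene. The labels gave all 4 libraries the same custom mTeSR1 medium with 40 ng/ml activin A and 50 ng/ml BMP4 for 2 days. The paper's methods give these doses the other way round, 40 ng/ml BMP4 and 50 ng/ml activin A. Of the libraries, 2 were from cells labelled DMSO, without IWP2 (control), and 2 from cells treated with IWP2. RNA was measured in bulk with an Illumina TruSeq kit from 2 µg of total RNA and is given as FPKM, fragments per kilobase of transcript, scaled to the mapped fragments of the library. Library numbers 1 and 2 below are those of the table's columns. Depth per library is unknown because the table holds FPKM only, and the summed FPKM was 653851 and 616418 in the DMSO libraries and 642918 and 651768 in the IWP2 libraries.

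Ribosomal protein mRNAs are among the most abundant in growing cells, and their amounts are kept close to each other because the subunits need the proteins in fixed proportions. Most of them begin with a C followed by an unbroken run of C or T, the 5′ terminal oligopyrimidine (TOP) motif, through which the mTOR pathway and the RNA-binding protein LARP1 control their translation. TOP control acts on how often a message is translated, which a table of RNA levels does not measure. Loss of 1 copy of some of these genes, RPS19 among them, causes Diamond-Blackfan anaemia, a failure of red blood cell production.

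The start sites below show the motif in the genes that the later comparisons turn on. Each sequence runs 5′ to 3′ on the strand of the gene, with 25 bases before the RefSeq start (GRCh38.p14) and 15 bases from it, and capitals mark the run of C and T that begins at the start base. RPL12 and RPS27 had the most positive and the most negative differences between groups among the ribosome's own proteins, RPS27L and RPL22L1 are paralogs shown beside RPS27 and RPL22, RPS19 is the classical Diamond-Blackfan gene, and EEF1A1 is a TOP message outside the family that passed the test.
RPL12 (chr9:127451392-127451431, minus strand): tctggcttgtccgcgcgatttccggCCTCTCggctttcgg
RPS27 (chr1:153990737-153990776, plus strand): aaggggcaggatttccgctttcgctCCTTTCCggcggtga
RPS27L (chr15:63157463-63157502, minus strand): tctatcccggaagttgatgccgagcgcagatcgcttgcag
RPL22 (chr1:6199581-6199620, minus strand): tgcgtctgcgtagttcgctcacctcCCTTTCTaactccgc
RPL22L1 (chr3:170870181-170870220, minus strand): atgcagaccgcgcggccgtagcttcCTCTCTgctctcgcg
RPS19 (chr19:41860230-41860269, plus strand, the first of its RefSeq starts in the table): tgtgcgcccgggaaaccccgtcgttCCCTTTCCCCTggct
EEF1A1 (chr6:73521018-73521057, minus strand): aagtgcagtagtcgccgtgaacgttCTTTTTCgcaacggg
RPS27L starts with G and has no run, while its parent gene RPS27 has a run of 7 bases, and RPL22 and RPL22L1 both have one.

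RefSeq start sequences were matched by symbol for 62 of the 77 genes of the ribosome's own proteins. A start base C followed by at least 4 more C or T, read on the gene's strand at any of its listed starts, was present in 46 of the 62 (74.2%), against 1404 of all 27305 genes in the start-site table (5.14%). The longest run had a median of 7 bases over the 62 genes. Of the 5 paralogs matched, RPL22L1 alone had the motif (20.0%). The motif was in 10 of 13 matched genes of the list of other TOP messages (76.9%), in 3 of 10 hosts of small nucleolar RNAs (30.0%) and in 2 of 33 ribosome biogenesis factors (6.06%). These are matches of letters at annotated starts, which were not measured here.

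The genes of the ribosome's own proteins were expressed at high and similar levels in every library. Over these 77 genes the mean FPKM of the 4 libraries had a median of 1466, with 70 genes within 2-fold of that median and a 12.2-fold range from RPS26 (451) to RPS27 (5504). The median gene was at 1375 and 1425 FPKM in the DMSO libraries and at 1451 and 1552 FPKM in the IWP2 libraries. FPKM is a level per length, so these levels can be set beside each other between genes; across the 77 genes the coding length, 75 to 1281 bases, was unrelated in rank to the mean FPKM (Spearman's rho -0.0083, a description over genes). Levels of the small-subunit genes had a median of 1540 FPKM and those of the large-subunit genes a median of 1408 FPKM. Near-identical processed pseudogenes of these genes are spread over the genome, so the FPKM of each gene depends on how reads shared with them were assigned.

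**Figure D1:**
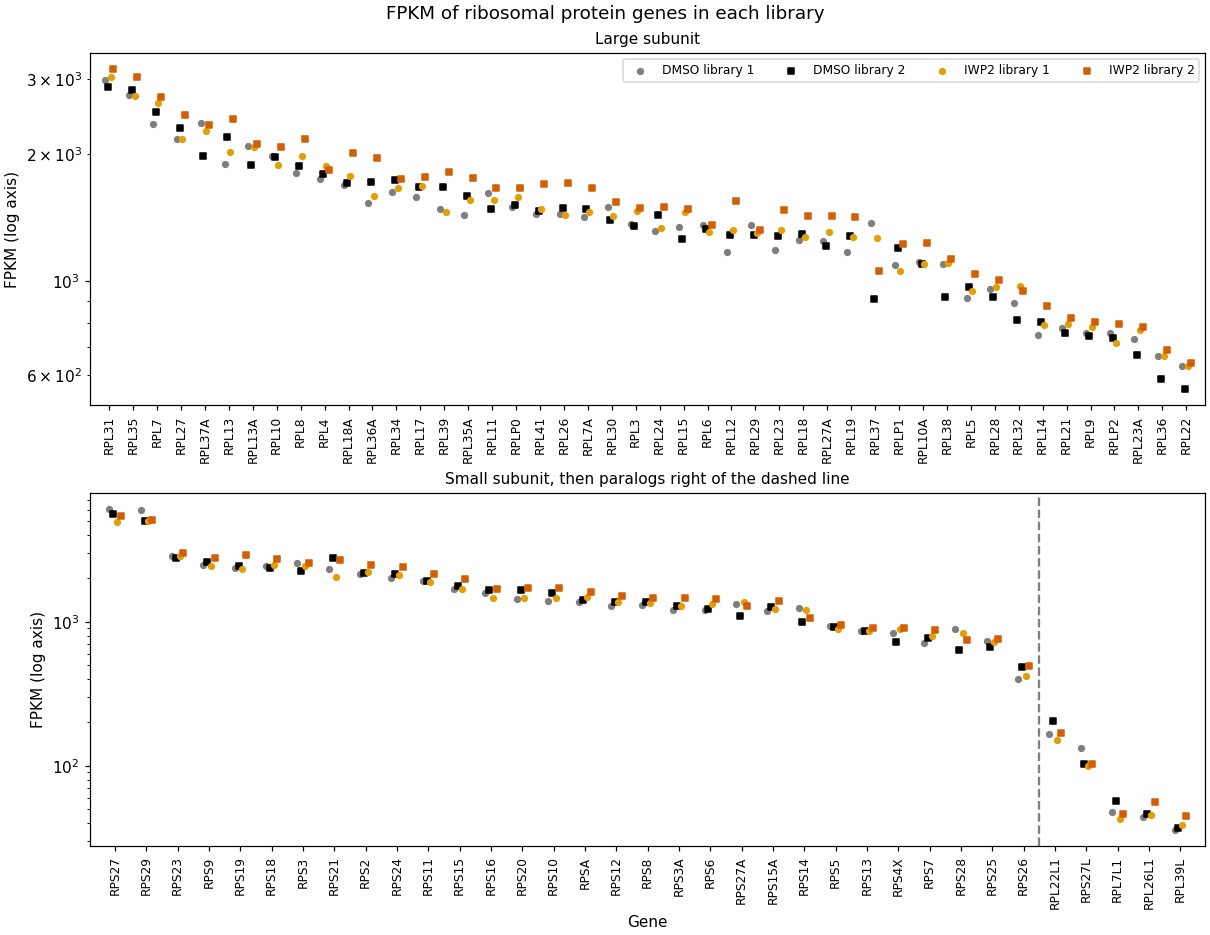
FPKM (log axis) of ribosomal protein genes in the 4 libraries, one point per library, large subunit above and small subunit with 5 paralogs below, ordered by mean FPKM. The points of the groups are interleaved for most genes, RPS27 and RPS29 stand above the rest of the small subunit, and the paralogs lie at 173 FPKM or less on average.

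The 5 most abundant members were RPS27, RPS29, RPL31, RPS23 and RPL35. RPS27, a small-subunit protein with a zinc finger, was at 6045 and 5615 FPKM in DMSO libraries 1 and 2 and at 4964 and 5393 FPKM in IWP2 libraries 1 and 2. RPS29, another small zinc-binding protein, was at 6010 and 4976 FPKM in DMSO and at 5029 and 5087 FPKM in IWP2. Both IWP2 libraries were below both DMSO libraries for RPS27, whereas for RPS29 the groups overlapped because DMSO library 2 was the lowest of the 4. RPL31 was at 2983 and 2870 FPKM in DMSO and at 3043 and 3173 FPKM in IWP2, RPS23, which lies at the decoding centre, at 2879 and 2758 against 2874 and 2983, and RPL35 at 2749 and 2835 against 2738 and 3035. The groups overlapped for RPS23 and RPL35, and for RPL31 both IWP2 libraries were above both DMSO libraries.

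No ribosomal protein gene passed the test between IWP2 and DMSO, in cells where many other genes did. Of 14022 genes with a mean of at least 1 FPKM, 2129 passed limma's moderated test at a Benjamini-Hochberg adjusted p under 0.05 (15.2%), 946 of them higher with IWP2 (6.75%) and 1183 lower (8.44%). Of the 84 members, 82 reached that level and 0 were called, and 0 were under an unadjusted p of 0.05, against 4245 of all genes tested. RPL3L and RPL10L did not reach the level.

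The differences were small and mostly above 0, although that direction was not kept after quantile normalization. On the log2(FPKM + 1) scale the members' differences, IWP2 minus DMSO, had a median of 0.082 (1.06-fold) and ran from -0.23 (RPL7L1) to 0.22 (RPL12), that is from 0.850-fold to 1.16-fold, with a median standard error of 0.10. The median over all genes tested was -0.017, with differences from -6.91 to 4.96. Differences were above 0 for 71 of 82 members and for 47.6% of all genes tested. The count was 67 of 82 under TPM scaling, 69 under scaling by the sum without members and 75 under median-of-ratios scaling. After quantile normalization it was 40 of 82 and the median turned to -0.0021. That step gives equal ranks the same value in every library. It can take out a shift shared by the members, which are among the most abundant genes, so it cannot decide whether they shift together. The 95% intervals of single members reached from -0.56 to 0.60, so that changes beyond 1.51-fold upward and 1.48-fold downward lay outside the interval of each of the 82 genes. Both IWP2 libraries were above both DMSO libraries for 30 members (36.6%), beside 27.9% of all genes tested, and below them for 2 members (2.44%), beside 31.9% of all genes tested. In bulk RNA, a change in the share of cells of one type and a change of RNA per cell cannot be told apart.

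**Figure D2:**
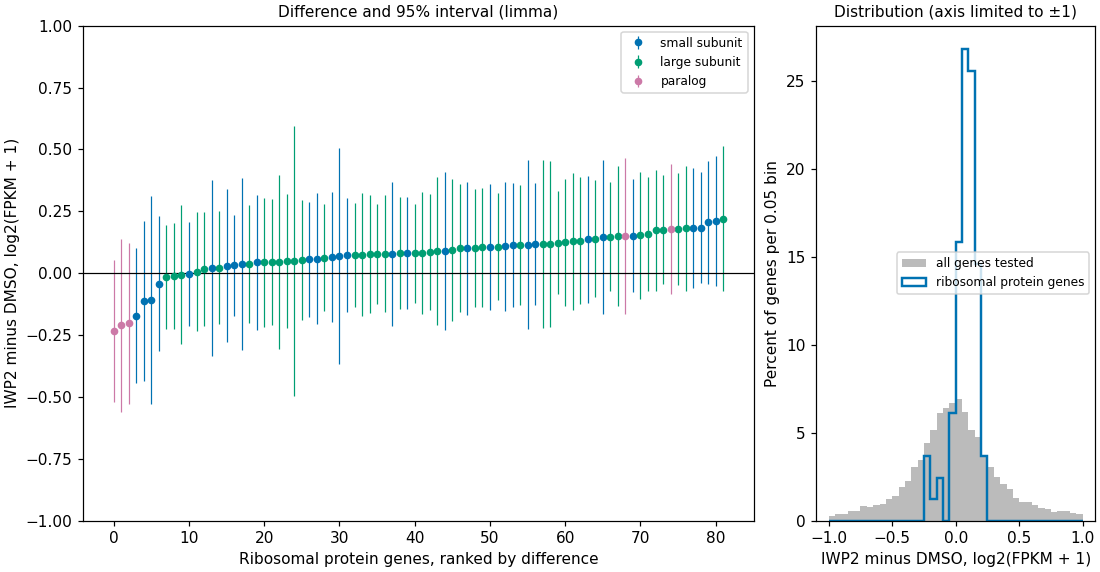
Left, log2 difference (IWP2 minus DMSO, on log2(FPKM + 1)) of the 82 members tested, ranked, with limma's 95% intervals and coloured by subunit; right, the distribution of differences as percent of genes per bin of 0.05 for members and all genes tested. Every interval spans 0, most points lie slightly above 0 (40 of 82 do after quantile normalization), and the members fill a narrow band of -0.23 to 0.22 within the wide spread of all genes.

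The split by subunit showed the same order of size. Among 31 small-subunit genes 26 differences were above 0, with a median of 0.079, and both IWP2 libraries were above both DMSO libraries for 8 and below for 1, the share above (25.8%) being close to the 27.9% of all genes tested; after quantile normalization 13 of 31 were above 0 and the median was -0.016. Among 46 large-subunit genes 43 differences were above 0, with a median of 0.088, and 21 had both IWP2 libraries above both DMSO libraries (45.7%, beside the same 27.9%) and 0 below (beside 31.9%); after quantile normalization 25 of 46 were above 0 and the median was 0.0064. Under median-of-ratios scaling 27 of 31 and 46 of 46 were above 0. Without IWP2 library 2 the counts above 0 were 18 of 31 and 30 of 46 and the medians 0.017 and 0.045. Without IWP2 library 1 the medians were 0.16 and 0.14. The FPKM summed over small-subunit genes, divided by that of large-subunit genes, was 0.860 and 0.843 in DMSO and 0.814 and 0.827 in IWP2. This ratio does not depend on the scaling of a library, and the groups did not overlap, but with 2 libraries against 2 the exact two-sided permutation test cannot go below the p of 0.333 that it gave. RPS27 and RPS29, the highest small-subunit genes, averaged 5504 and 5275 FPKM, beside a small-subunit median of 1540 FPKM, so they weigh heavily in this ratio. Both were listed among the 6 most negative differences, at -0.17 and -0.11. The ratio without them was not tested, so it does not show a shift of the small subunit as a whole.

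Small- and large-subunit genes alike were among the 6 most positive differences. RPL12, a protein at the base of the stalk that recruits translation factors, was at 1173 and 1289 FPKM in DMSO and at 1322 and 1552 FPKM in IWP2 (log2 difference 0.22, standard error 0.12). RPS4X, a small-subunit protein encoded on the X chromosome, was at 839 and 721 FPKM in DMSO and at 894 and 908 FPKM in IWP2 (0.21). The difference of RPL12 was 0.10 without IWP2 library 2, 0.34 without IWP2 library 1 and 0.11 after quantile normalization, and that of RPS4X 0.10 without DMSO library 2 and 0.32 without DMSO library 1. In RPL12 and RPS4X both IWP2 libraries were above both DMSO libraries, by margins smaller than the wider of the gaps between replicates. RPS6, the small-subunit protein phosphorylated by S6 kinases below mTOR, was at 1208 and 1220 FPKM in DMSO and at 1326 and 1434 FPKM in IWP2 (0.18). RPS7, one of several ribosomal proteins known to bind MDM2, was at 711 and 770 FPKM against 801 and 880 FPKM (0.18), and RPL23, another of these, at 1188 and 1278 against 1321 and 1475 FPKM (0.18). Quantile normalization brought RPS6 to 0.053 and RPL23 to 0.049, and without IWP2 library 2 RPS7 was at 0.11 and RPL23 at 0.10. The groups of these 3 did not overlap either, beside 27.9% of all genes tested with both IWP2 libraries above both DMSO libraries. These genes were picked for their large differences, so that separation is no added support. The adjusted p of RPL12, RPS4X, RPS6, RPS7 and RPL23 lay between 0.239 and 0.298 in limma.

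Of the 6 most negative differences, the first 3 belonged to paralogs and the other three to small-subunit genes. RPS27 had a log2 difference of -0.17 (standard error 0.11, adjusted p 0.355 in limma; -0.11 without IWP2 library 1) and RPS29 one of -0.11 (adjusted p 0.606). RPS21, a small protein of the small subunit, was at 2323 and 2754 FPKM in DMSO and at 2055 and 2682 FPKM in IWP2 (-0.11). In RPS21 library 2 was above library 1 in both groups by more than the difference between the groups. The sign for RPS29 depended on DMSO library 1, without which the difference was 0.023, and that for RPS21 on DMSO library 2, without which it was 0.015, and on IWP2 library 1, without which it was 0.085.

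The stalk of the large subunit, made of RPLP0 with pairs of RPLP1 and RPLP2, and RPSA, a small-subunit protein that also occurs as a laminin receptor, showed no difference past the test. RPLP0 was at 1498 and 1513 FPKM in DMSO and at 1583 and 1661 FPKM in IWP2. RPLP1 was at 1095 and 1197 FPKM in DMSO and at 1059 and 1229 FPKM in IWP2, and RPLP2 at 757 and 735 against 717 and 795 FPKM. RPSA was at 1375 and 1425 FPKM in DMSO and at 1497 and 1616 FPKM in IWP2. RPLP0 and RPSA did not overlap between groups (adjusted p 0.457 and 0.327 in limma), while IWP2 libraries 1 and 2 enclosed both DMSO libraries for RPLP1 and RPLP2.

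The paralogs were expressed below their parent genes in every library. RPL22L1, which can take the place of RPL22 in the ribosome, was the highest, at 166 and 205 FPKM in DMSO and at 152 and 169 FPKM in IWP2 (log2 difference -0.20, adjusted p 0.357 in limma). RPL22 itself was at 630 and 556 FPKM in DMSO and at 631 and 643 FPKM in IWP2 (0.10, adjusted p 0.516). Without DMSO library 2 the difference was -0.050 for RPL22L1 and 0.015 for RPL22, without DMSO library 1 it was -0.36 and 0.19, and without IWP2 library 1 it was -0.13 for RPL22L1. RPL22L1 was thus 26.3% and 36.8% of RPL22 in DMSO and 24.0% and 26.2% in IWP2. The ratio was lower in both IWP2 libraries than in both DMSO libraries, but DMSO library 1 and IWP2 library 2 differed by far less than the DMSO libraries did, and the exact two-sided permutation p was 0.333, the smallest possible. The log2 ratio differed by -0.31 between groups, by -0.065 without DMSO library 2 and by -0.55 without DMSO library 1.

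RPL7L1, a nucleolar protein related to RPL7, was at 48.1 and 57.2 FPKM in DMSO and at 42.8 and 46.2 FPKM in IWP2, and both IWP2 libraries were below both DMSO libraries (-0.23, adjusted p 0.243; -0.11 without DMSO library 2 and -0.36 without DMSO library 1). RPL7 was at 2351 and 2514 FPKM in DMSO and at 2633 and 2721 FPKM in IWP2, which made RPL7L1 2.05% and 2.27% of RPL7 in DMSO and 1.63% and 1.70% in IWP2. RPS27L, a paralog of RPS27, was at 134 and 103 FPKM in DMSO and at 99.4 and 103 FPKM in IWP2 (-0.21, adjusted p 0.371), so that DMSO library 1 alone stood apart; the difference was -0.024 without it and -0.40 without DMSO library 2. RPL26L1 was at 44.3 and 46.3 FPKM against 45.2 and 56.1 FPKM (0.15), beside RPL26 at 1440 and 1492 against 1436 and 1705 FPKM. RPL39L, known from testis and some tumours, was at 36.0 and 37.1 FPKM against 38.6 and 44.7 FPKM (0.18), beside RPL39 at 1486 and 1672 against 1458 and 1817 FPKM. For RPL26L1 and RPL39L the highest library was IWP2 library 2, as it was for their parents, and without it the differences were -0.0020 and 0.075, against 0.30 and 0.28 without IWP2 library 1.

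The paralogs RPL3L and RPL10L were close to absent. RPL3L, known from striated muscle, was at 0.136 and 0.153 FPKM in DMSO and at 0.123 and 0.119 FPKM in IWP2, beside RPL3 at 1363 and 1353 against 1470 and 1489 FPKM. RPL10L, known from testis, was listed at 0 in 3 libraries and at 0.0844 FPKM in IWP2 library 2, beside RPL10 at 1974 and 1969 against 1886 and 2076 FPKM.

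The genes linked to Diamond-Blackfan anaemia were described because the cells were on the way to blood. None of the 12 listed genes was called by limma, beside 15.2% of all genes tested, and 0 had an unadjusted p under 0.05, beside 4245 of 14022. All 12 differences were above 0 with a median of 0.098, beside 71 of 82 for all members, but 8 of 12 were after quantile normalization. Without IWP2 library 2 the count was 7 of 12 and the median 0.0068, and without IWP2 library 1 the median was 0.20. RPS19 was at 2361 and 2452 FPKM in DMSO and at 2324 and 2918 FPKM in IWP2, so that the IWP2 libraries held both the lowest and the highest value. RPL5, which with RPL11 and the 5S ribosomal RNA binds MDM2, was at 915 and 971 FPKM in DMSO and at 950 and 1044 FPKM in IWP2, and RPL11 was at 1616 and 1484 against 1553 and 1665 FPKM. The groups overlapped for each of RPS19, RPL5 and RPL11. Ribosomal proteins whose symbols the rule does not take had differences of like size, with 0 of 4 called by limma and 0 at an unadjusted p under 0.05: RACK1, a scaffold on the small subunit, was at 1354 and 1596 FPKM against 1602 and 1789 FPKM.

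Taken as one sum, the members held 18.7% and 19.8% of all FPKM in the DMSO libraries and 19.0% and 20.5% in the IWP2 libraries. The means differed by 0.508 percentage points, the groups overlapped, and the exact two-sided permutation p was 0.667. Without DMSO library 1 the difference was -0.00044 points, and without IWP2 library 2 it was -0.21 points. The share was higher in library 2 than in library 1 within both groups.

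The difference between groups rested more on one library than on the other. Between the libraries numbered 1 the members' differences, IWP2 minus DMSO, had a median of 0.027, with 49 of 82 above 0, and between those numbered 2 a median of 0.14, with 78 of 82 above 0. Between replicates, DMSO library 2 minus library 1 had a median of 0.028, with 47 of 82 above 0, and IWP2 library 2 minus library 1 a median of 0.14, with 76 of 82 above 0. In 62 of 82 members at least one of these replicate differences was larger in size than the difference between groups. Without IWP2 library 2 the median difference between groups was 0.029, with 49 of 82 above 0.

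The replicate differences of the members had a common pattern in both groups. Across the 82 members, the difference of library 2 from library 1 in DMSO and in IWP2 had Pearson's r of 0.793 and Spearman's rho of 0.746. Across all 14022 genes tested the values were 0.152 and 0.062. These describe genes that share libraries and have no p. Other genes as abundant as the members were not compared, so the pattern may not be particular to ribosomal protein genes. RPL37, a small zinc-binding protein of the large subunit, was at 1371 and 911 FPKM in DMSO and at 1268 and 1056 FPKM in IWP2, and RPS28 was at 888 and 639 FPKM against 831 and 752 FPKM. In these 2 genes, chosen after their values were seen, library 2 was lower than library 1 in both groups, while in RPS21 it was higher in both. MT-ATP8, a mitochondrially encoded row also chosen after its values were seen, moved with the number as well, at 33374 and 9279 FPKM in DMSO and at 26236 and 11660 FPKM in IWP2, and the rows of the mitochondrial chromosome held 9.57%, 6.25%, 8.95% and 6.92% of all FPKM in the same order. Leaving out the mitochondrial rows, the members held 20.73% and 21.08% of FPKM in DMSO and 20.92% and 22.003% in IWP2, still higher in library 2 of both groups but by less than with those rows. The part of MT-ATP8 in the replicate differences of single members was not tested.

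**Figure D3:**
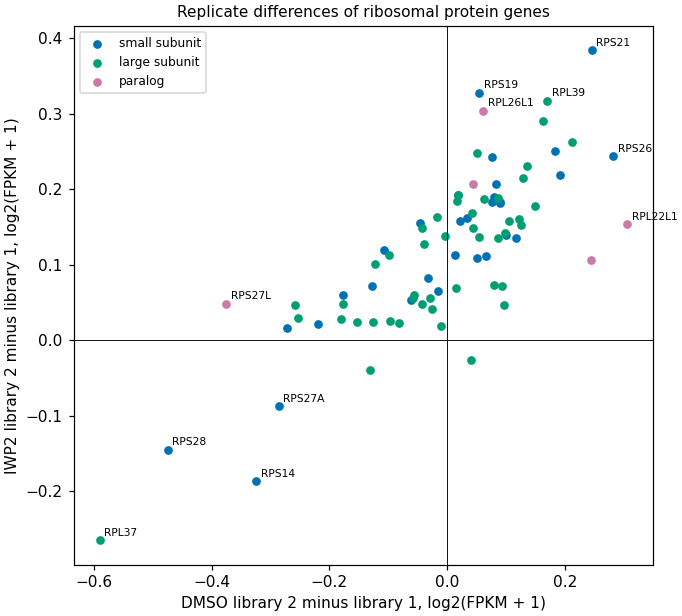
Each point is 1 of the 82 members, with the log2 difference of DMSO library 2 from DMSO library 1 (horizontal) and of IWP2 library 2 from IWP2 library 1 (vertical), on log2(FPKM + 1). Points run from lower left (RPL37, RPS28) to upper right (RPS21), and 76 of 82 lie above 0 on the vertical axis.

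The remaining genes for making and using ribosomes were set beside the members through lists. Of 18 other TOP messages, limma called EEF1A1 higher and VIM lower with IWP2, and the list had a median log2 difference of 0.038. EEF1A1, the elongation factor that brings aminoacyl-tRNA to the ribosome, was at 3516 and 3620 FPKM in DMSO and at 5082 and 5111 FPKM in IWP2 (0.51, standard error 0.094, adjusted p 0.0239). Its IWP2 values were well above its DMSO values, but its adjusted p was 0.152 to 0.173 when any one library was left out and up to 0.274 over the other alternatives. VIM, the intermediate filament vimentin, typical of mesenchymal cells, was at 519 and 713 FPKM in DMSO and at 79.4 and 89.6 FPKM in IWP2 (-2.84, adjusted p 0.00102), and it kept its call in all 12 alternatives. Outside the members, genes with a TOP start in RefSeq were called in 12.6% of 696 cases and other genes in 15.5% of 9090 cases.

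The lists of ribosome assembly held 4 called genes, to be read beside the 15.2% called among all genes tested. Of 12 snoRNA host genes limma called 1 higher, the non-coding EPB41L4A-AS1 (24.8 and 28.2 FPKM in DMSO, 43.3 and 56.1 FPKM in IWP2), and of 37 ribosome biogenesis factors tested 1 higher, MDN1, the large ATPase that remodels large-subunit precursors (13.3 and 14.2 against 22.5 and 22.2 FPKM), and 1 lower, WDR75, a factor of small-subunit processing (55.7 and 52.9 against 38.4 and 33.7 FPKM). Of 20 genes of the RNA polymerase I machinery, which transcribes ribosomal RNA, TAF1A was called lower (log2 difference -0.53, adjusted p 0.0354). The median differences of these 3 lists were -0.015, -0.015 and -0.044. The calls of EPB41L4A-AS1, WDR75 and TAF1A were lost without any one of the 4 libraries, and that of MDN1 without DMSO library 1 or either IWP2 library. All 4 calls were lost with no filter on low values as well (adjusted p 0.119, 0.0884, 0.0923 and 0.0570 in the order just given). TAF1A also lost its call after quantile normalization (adjusted p 0.0511) and with the library number as a block (adjusted p 0.0601). With one library left out the adjusted p reached 0.120 for EPB41L4A-AS1, 0.123 for MDN1, 0.137 for WDR75 and 0.222 for TAF1A.

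Of 16 regulators of ribosome synthesis limma called 3 and of 27 initiation and elongation factors 1, again beside 15.2% of all genes tested. MXI1, an antagonist of MYC family proteins, was lower with IWP2 (11.3 and 11.5 FPKM in DMSO, 5.70 and 5.97 FPKM in IWP2), and so was EIF4EBP1, the repressor of cap-dependent translation under mTOR control (161 and 161 against 104 and 121 FPKM). EIF3K, a subunit of the initiation factor eIF3, was lower as well (283 and 304 against 185 and 199 FPKM). The call of EIF4EBP1 was lost without any one of the 4 libraries, and those of MXI1 and EIF3K without DMSO library 2 or either IWP2 library. The adjusted p with one library left out reached 0.103 for MXI1, 0.147 for EIF4EBP1 and 0.107 for EIF3K. With no filter on low values the calls of all 3 were lost (adjusted p 0.0523, 0.117 and 0.0741), and with no variance trend that of EIF4EBP1 (0.0624).

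**Figure D4:**
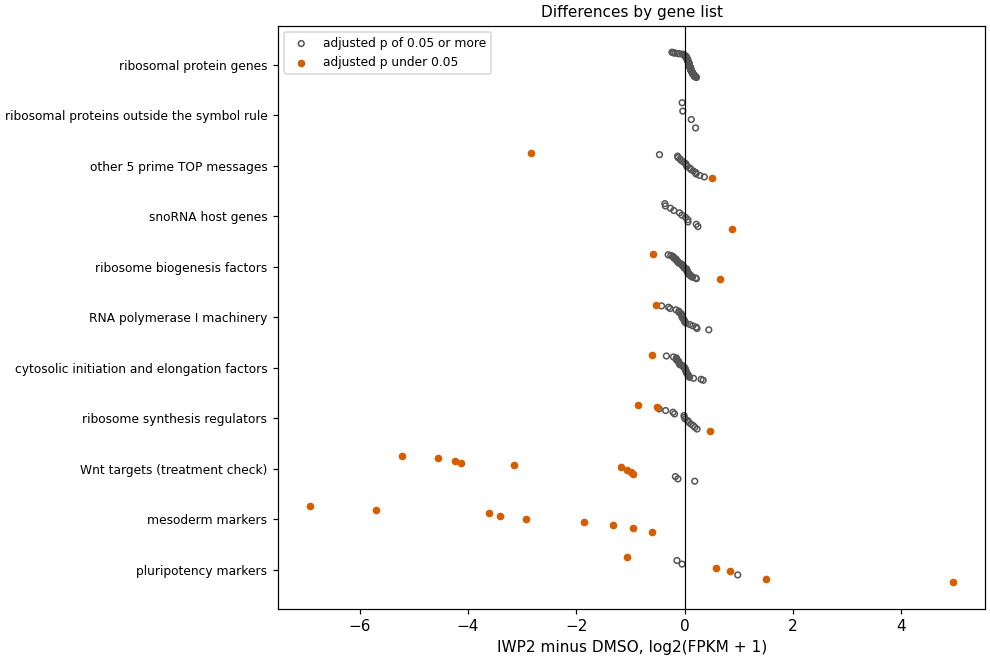
Log2 difference (IWP2 minus DMSO, on log2(FPKM + 1)) of each gene of 11 lists, filled where limma's adjusted p was under 0.05; the small vertical offset within a list only separates points by rank. The ribosomal protein genes cluster at 0 with no filled point, as do most genes of the ribosome lists, while Wnt targets and mesoderm markers reach past -5 and SOX2 stands at 4.96.

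The libraries carried the marks of the treatment and of the cell state, so that the small differences of ribosomal protein genes stood in cells that otherwise differed widely. Of 12 Wnt target genes limma called 9 lower with IWP2 and 0 higher, with a median of -1.11; 11 of the 12 differences were below 0. SP5, a transcription factor induced by Wnt, was at 53.2 and 47.0 FPKM in DMSO and at 0.379 and 0.363 FPKM in IWP2 (-5.22, adjusted p 0.000186). LGR5, a receptor for R-spondins, was at 21.5 and 27.8 FPKM against 0.105 and 0.0763 FPKM, and NKD1 and DKK1, feedback inhibitors, were called lower too. All 9 mesoderm markers tested and 5 of 6 definitive endoderm markers were called lower, with medians of -2.92 and -2.06; of CER1, GATA6, FOXA2 and CXCR4, the 4 followed through the alternatives, FOXA2 and CXCR4 lost their calls without either IWP2 library (adjusted p up to 0.0968 and 0.106) and with no filter on low values (0.0826 and 0.0871). APLNR, a receptor of early mesoderm, was at 380 and 512 FPKM in DMSO and at 2.97 and 2.39 FPKM in IWP2, and CER1, an inhibitor of Nodal and Wnt secreted by endoderm, at 1612 and 2048 against 38.6 and 34.2 FPKM.

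Of 8 pluripotency markers 4 were called higher with IWP2 and 1, TDGF1, lower. SOX2, a core pluripotency factor, was at 0.193 and 0.174 FPKM in DMSO and at 35.6 and 36.1 FPKM in IWP2 (4.96, adjusted p 0.000186), and POU5F1 was at 751 and 571 FPKM in DMSO and at 1854 and 1844 FPKM in IWP2 (adjusted p 0.0041). Of 8 hemato-endothelial markers 3 reached the level to be tested, and RUNX1 and TEK were lower, at 2.51 and 2.35 against 0.210 and 0.350 FPKM and at 3.53 and 3.14 against 1.44 and 1.82 FPKM. Of 5 neuroectoderm markers NES alone reached that level and was higher (98.6 and 87.1 against 136 and 125 FPKM). The calls of NES and TEK were lost without any one of the 4 libraries, those of POU5F1, DPPA4 and RUNX1 without either IWP2 library, and that of TDGF1 without IWP2 library 2. The adjusted p then reached 0.194, 0.220, 0.0714, 0.0611, 0.0793 and 0.0553. With no filter on low values the calls of NES, TEK, POU5F1 and RUNX1 were lost too (0.117, 0.150, 0.0718 and 0.0620), as was that of NES with no variance trend (0.0683). TEK also lost its call with the library number as a block (adjusted p 0.0742), whereas SP5, LGR5, APLNR, CER1, VIM and SOX2 kept their calls in all 12 alternatives.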

How the data were processed

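The 4 libraries came from H1 cells, 2 per group. The submitters' processing notes name BWA, Bowtie and RSEM, without versions, and the build hg19, although the loci in the table match GRCh38 (GENCODE release 29); which tool made which step is not given in the sources used here. The deposited table holds FPKM per gene, normalized by the authors for transcript length and library size. The unit was read from the values and the study's use of RSEM. The columns without IWP2 were assigned to the DMSO group as such, and their numbers come from the column names.

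FPKM were analysed as log2(FPKM + 1) with limma 3.58.1 (R 4.3.3, moderated test with a mean-variance trend) over genes with a mean of at least 1 FPKM, with Benjamini-Hochberg adjustment over all 14022. The step was checked on simulated data, with no result of that check reported here. Fold changes are on the log2(FPKM + 1) scale and understate low genes. Ratios and shares were compared by exact permutation over libraries. Nothing in the labels says that libraries of a group came from separate cultures, so p-values measure only the spread between these libraries. Alternatives were the pseudocount, the filter, 4 scalings, the variance trend, the library number as a block, and each library left out.

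Members and lists were chosen with earlier results of these data known. Named members were the 5 highest, the 6 most positive and 6 most negative differences, the stalk proteins and RPSA, the paralogs with their parents, and RPS19, RPL5, RPL11 and RPS4X; from each list, up to 4 called genes with the largest differences, or the 2 most abundant; some genes this rule names are not reported here. RPS26, RPL37, RPS28 and MT-ATP8 were named after their values were seen. Start sequences and coding lengths come from RefSeq (GRCh38.p14) and GENCODE.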

Additional observations from a re-analysis of the deposited data

How the results depend on the processing

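The count of 0 ribosomal protein genes called by limma held in all 12 alternatives, where at most 3 members had an unadjusted p under 0.05. In the 4 fits that leave out a library, the lone library of a group is assumed to vary like the other group, and only 1.70% to 9.81% of all genes were called, so a count of 0 there says little about stability. With no filter on low values only 1.32% of all genes were called, so the count of 0 in that fit says little either. The members' median difference of 0.082 turned to -0.0021 after quantile normalization and kept its sign otherwise. Its size moved, to 0.054 under TPM scaling, 0.10 under median-of-ratios scaling, 0.029 without IWP2 library 2 and 0.14 without IWP2 library 1. In all, 2129 genes were called, 381 with no filter on low values, and 238 to 1375 with one library left out. The difference in the members' share of FPKM ran from -0.21 to 1.23 points, and single-gene differences from -0.0020 to 0.30 for RPL26L1, -0.30 to 0.085 for RPS21 and -0.25 to 0.023 for RPS29, with one library left out. Over all 82 members the sign changed for 31 after quantile normalization, for 9, 11, 9 and 22 without DMSO library 1, DMSO library 2, IWP2 library 1 and IWP2 library 2, and for at most 4 under any other alternative. For the 29 called list genes chosen by the naming rule, of 40 called, 273 values kept their call and 75 lost it; the cause was not tested.

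With the library number as a replicate block, 1927 genes and 0 ribosomal protein genes were called. Among the called genes named, the block ended the calls of TAF1A (adjusted p 0.0601) and TEK (0.0742) and no other. With only 2 numbers and no label that ties them to a culture or day, the numbers were not taken as pairs. Depth is unknown, and 2 libraries against 2 limit the precision.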

Other observations

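Pseudogene rows of ribosomal protein genes, summarised after their values were seen, numbered 964, of which 340 were above 0 FPKM in some library and 73 were tested. Limma called 0 of them, beside 15.2% of all genes tested, and their median log2 difference was 0.090, beside -0.017 over all genes tested. Together they held 0.0930% and 0.135% of all FPKM in the DMSO libraries and 0.0768% and 0.140% in the IWP2 libraries, higher in library 2 of both groups. RPS29P5, the most abundant, was at 94.0 and 121 FPKM in DMSO, listed at 0 in IWP2 library 1 and at 159 FPKM in IWP2 library 2. RPL13AP5 was at 50.3 and 62.8 FPKM in DMSO and at 53.4 and 56.6 FPKM in IWP2.

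The 9 mitochondrially encoded genes listed had 0 calls by limma, beside 15.2% of all genes tested, and 0 unadjusted p under 0.05, beside 4245 of 14022. All 9 differences were above 0 (6 after quantile normalization), beside 47.6% of all genes tested, with a median of 0.18. Without IWP2 library 2 the count was 7 of 9 and the median 0.079, and the median was 0.12 without DMSO library 1 and 0.27 without IWP2 library 1. The list does not hold MT-ATP8, whose mean was 21326 FPKM in DMSO and 18948 FPKM in IWP2. MT-CO1 and MT-CO2, subunits of cytochrome c oxidase, were the most abundant of the 9. MT-CO2 was at 4889 and 4841 FPKM in DMSO and at 5091 and 5604 FPKM in IWP2, and the groups did not overlap. MT-CO1 was at 4843 and 5056 FPKM in DMSO and at 4980 and 5286 FPKM in IWP2, and the groups overlapped.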
